A study of Mus musculus with 4 samples.

Results

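H3K27me2 peaks labelled as exonic or as lying in a 5' UTR made up 6220 of the 56036 peaks listed for PN5 mouse zygotes, which are zygotes at the last pronuclear stage before the first cleavage. The members were all peaks whose annotation began with Exon or 5' UTR, and they were separated into 1581 peaks on exon 1 of a transcript, 4224 on a later exon and 415 on a 5' UTR. The lists were made by ULI-NChIP-seq, a native chromatin immunoprecipitation for very few cells, in pooled zygotes without polar bodies, made by fertilizing eggs of the C57BL/6J strain in vitro with sperm of the PWK/PhJ strain. Reads had been assigned to the maternal or the paternal genome by variants between the strains, so that each genotype gave 1 maternal and 1 paternal list.

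The mothers of both groups carried floxed Ezh2 alleles (Ezh2 fl/fl). Females that gave Ezh2m-/p+ zygotes had Gdf9-Cre in addition, a Cre active in growing oocytes that removes the floxed exon there, whereas those that gave Ezh2m+/p+ zygotes had no Cre. The sperm gave a normal Ezh2 allele in both groups. Each genotype had 1 H3K27me2 library and 1 input library, so differences between genotypes could not be checked against replicates or tested. The lists give no read counts, and the depth behind each peak is unknown. By the study's account the Ezh2m+/p+ libraries were sequenced more deeply than the Ezh2m-/p+ libraries, and the part of this in the differences between lists was not tested. The lists named for wild-type zygotes were taken as Ezh2m+/p+ and those named for EZH2 as Ezh2m-/p+. The numbers of peaks that the study states for each genotype and parental genome equal those of the lists as named. The study's own drawing of the category shares shows them under the other genotype, and the study's text on exons goes with that drawing. The directions between genotypes given here follow the names and the stated numbers, and with the names exchanged each difference would have the opposite sign.

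H3K27me2 is the dimethylated form of lysine 27 of histone H3, placed by Polycomb repressive complex 2, whose catalytic subunit is EZH2 or its relative EZH1. The mark is broad in most cells and is found within genes and between them. A peak in these lists is a stretch of enriched windows, usually many times longer than an exon, and the annotation tool gave each peak a single label in the order promoter, 5' UTR, 3' UTR, exon, intron, downstream and intergenic. A peak was called a promoter peak when it lay within 3 kb of the nearest listed start site. The members are thus the peaks farther away that, as the tool read them, touched a 5' UTR, or touched an exon but no 3' UTR.

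The exon edges below show the sequence at which such a peak met a later exon of a protein-coding gene. The folds over input of these peaks were among the 2 largest of the later-exon peaks of each list. They are given for 1 gene of the Ezh2m+/p+ maternal list and 2 genes of each other list. Each sequence is 30 bases of GRCm38 taken from the RefSeq genome, read 5' to 3' along the gene, with the end of the intron in lower case and the first 15 bases of the exon in capitals. The Piwil2 peak ended at the exon edge itself, so that the intron bases shown lay outside it, whereas the other peaks contained the whole stretch.
Acoxl (exon 17 of 18, Ezh2m+/p+ maternal list, fold 89.8, chr2:128105662-128105691, plus strand): tctcccactcttcagTTTTGTCTGCTGTAT
Cep350 (exon 18 of 38, Ezh2m+/p+ paternal list, fold 506, chr1:155911984-155912013, minus strand): cactttaattgaaagGCACAGCAGCAACGT
Tnr (exon 16 of 23, Ezh2m+/p+ paternal list, fold 409, chr1:159894946-159894975, plus strand): tgcatctgatttcagTTGCTGGAGAGACCA
Piwil2 (exon 16 of 23, Ezh2m-/p+ maternal list, fold 152, chr14:70394185-70394214, minus strand): tgttcttgttcctagATTCCCATGCATTTC
Itga8 (exon 14 of 30, Ezh2m-/p+ maternal list, fold 102, chr2:12204762-12204791, minus strand): ttttttttttttcagATTTGCTTGTAGGGG
Atrn (exon 3 of 29, Ezh2m-/p+ paternal list, fold 725, chr2:130935509-130935538, plus strand): taattatttttctagGCCAAATAGAATAAT
Astn1 (exon 10 of 23, Ezh2m-/p+ paternal list, fold 489, chr1:158579566-158579595, plus strand): tgtgtgtccatgcagATTCACCTATACCCT
In all 7 sequences the intron ended in the letters ag, the usual acceptor of splicing, directly before the named exon. Acoxl encodes a relative of acyl-CoA oxidases. Cep350 is a centrosomal protein, Tnr is tenascin-R of the extracellular matrix of the brain, and Astn1 is astrotactin, which neurons use to migrate along glia. Piwil2 is a PIWI protein of the piRNA pathway of germ cells, Itga8 is an integrin alpha chain and Atrn is attractin, a membrane protein known from coat colour mutants.

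The labels held when they were compared with GENCODE gene models. Of the 5805 exon peaks, 5800 (99.9%) contained bases of the exon that the label named, and 5 (0.0861%) did not. All 415 peaks of the 5' UTR class contained bases of a 5' UTR. Conversely, 36 of 16105 intron peaks (0.224%) touched any exon. The exon was nevertheless a small part of most peaks. The median peak held 217 exonic bp in the Ezh2m+/p+ maternal list, 220 in the Ezh2m+/p+ paternal, 219 in the Ezh2m-/p+ maternal and 250 in the Ezh2m-/p+ paternal list. For later exons this was a median of 6.74%, 9.59%, 8.84% and 8.83% of the peak in the same order. At least 200 bp of exon were present in 53.2% (422 of 793), 53.6% (988 of 1842), 54.0% (598 of 1108) and 57.4% (1422 of 2477) of the members. The class is thus one of broad peaks that include exons, and the label does not place the mark on the exon itself.

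The share of exon and 5' UTR peaks was highest in the Ezh2m+/p+ maternal list. There 793 of 5744 peaks were members (13.8%, 95% Wilson interval 12.9% to 14.7%), against 1108 of 9606 in the Ezh2m-/p+ maternal list (11.5%, 10.9% to 12.2%). The paternal lists held 1842 of 17863 (10.3%, 9.87% to 10.8%) in Ezh2m+/p+ and 2477 of 22823 (10.9%, 10.5% to 11.3%) in Ezh2m-/p+ zygotes. The intervals of the maternal lists did not overlap and those of the paternal lists did, and intervals cover the counting of peaks in these libraries only. The members covered 2.65 Mb, 3.11 Mb, 5.14 Mb and 8.89 Mb, respectively.

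The maternal difference ran through all 3 classes, whose proportions among the members were nearly the same in both maternal lists. The later-exon share was 9.70% in the Ezh2m+/p+ maternal list (557 peaks) and 8.14% in the Ezh2m-/p+ maternal list (782 peaks), a difference of -1.56 percentage points out of -2.27 for all members. Exon 1 peaks were 3.24% (186 peaks) and 2.70% (259 peaks), and 5' UTR peaks 0.870% (50 peaks) and 0.697% (67 peaks). In the paternal lists the later-exon shares were 7.0% (1251 peaks) and 7.16% (1634 peaks), and the exon 1 shares 2.59% (462 peaks) and 2.95% (674 peaks) for Ezh2m+/p+ and Ezh2m-/p+, respectively. The 5' UTR shares were 0.722% (129 peaks) and 0.740% (169 peaks). Only the later-exon intervals of the maternal lists lay apart between genotypes among the 3 classes of both genomes.

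**Figure D1:**
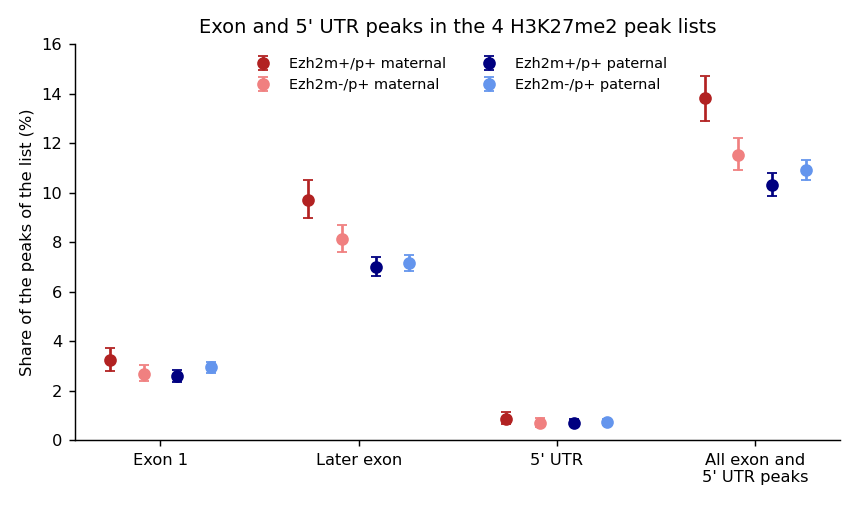
Share of each peak list that carried the label exon 1, later exon or 5' UTR, and their sum, in percent of the peaks of the list. Points are single lists and bars are 95% Wilson intervals for counting error. The Ezh2m+/p+ maternal list lies highest in every class, with 13.8% for all members.

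Longer peaks were more often members. Among peaks of up to 1500 bp the share was 9.90% and 8.45% in the maternal lists and 7.86% and 7.96% in the paternal lists, with Ezh2m+/p+ first. Among peaks over 4000 bp it was 16.8%, 16%, 15.9% and 17%. The share rose from each length bin to the next in all 4 lists. The median member was 3199 bp long in the Ezh2m+/p+ maternal list, where all peaks had a median of 2999 bp. The Ezh2m-/p+ maternal members had a median of 2599 bp beside 2199 bp for all peaks. The paternal medians were 1999 bp beside 1799 bp in Ezh2m+/p+ and 2399 bp beside 1999 bp in Ezh2m-/p+ zygotes. In peaks over 2500 and up to 4000 bp the maternal shares were 14.2% and 14.6%, and in the other bins that of the Ezh2m+/p+ maternal list was the higher one. The part of length in the maternal difference was not tested.

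**Figure D2:**
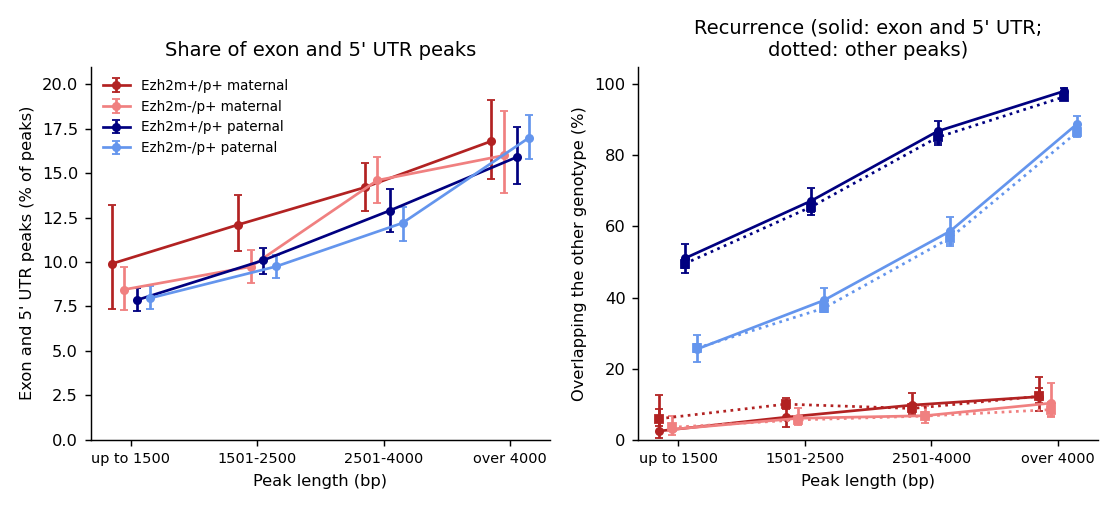
Left, percent of the peaks in each length bin (bp) that were exon or 5' UTR peaks. Right, percent of members (solid lines, circles) and of all other peaks (dotted lines, squares) that overlapped a peak of the same parental genome in the other genotype. Bars are 95% Wilson intervals, and both percentages were higher over 4000 bp than at up to 1500 bp in every list, with 98.1% of Ezh2m+/p+ paternal members over 4000 bp overlapping.

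Exon 1 peaks were almost never first exons of protein-coding genes. The label order had first turned peaks within 3 kb of a listed start into promoter peaks. Peaks touching a 5' UTR had likewise become 5' UTR peaks. The gene types below thus describe what this order left, and are given without a share over all peaks. Over the 4 lists, 474 of 1581 lay on processed pseudogenes, 434 (27.5%) on long non-coding RNAs and 313 (19.8%) on TEC loci, which are candidate transcripts that await experimental proof. Small RNA genes made up 194 (12.3%), of which 88 were annotated as snoRNAs, 54 as snRNAs, 24 as miRNAs, 20 as miscellaneous RNAs and 8 as rRNAs. Other pseudogenes, those of immunoglobulin and T cell receptor segments included, were 98 (6.20%), segments that are not pseudogenes 30 (1.90%), and protein-coding genes 38 (2.40%). The 24 miRNA genes were all predicted genes, named Gm and a number. These genes had no mature miRNA sequence in the reference used, so no miRNA sequence is shown.

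The main types recurred in every list. Processed pseudogenes were 25.8% of exon 1 peaks in the Ezh2m+/p+ maternal list and 28.1% in the Ezh2m+/p+ paternal list, with Wilson intervals of 20.1% to 32.5% and 24.2% to 32.4%. They were 27.4% (22.3% to 33.1%) and 33.4% (29.9% to 37.0%) in the Ezh2m-/p+ maternal and paternal lists. Small RNA genes were 17.7% (12.9% to 23.9%) and 10.6% (8.12% to 13.7%) in the Ezh2m+/p+ maternal and paternal lists, and 13.9% (10.2% to 18.6%) and 11.3% (9.10% to 13.9%) in the Ezh2m-/p+ maternal and paternal lists. The named transcript had a single exon in 65.1%, 65.8%, 69.1% and 67.7% of exon 1 peaks, in the order Ezh2m+/p+ maternal, Ezh2m+/p+ paternal, Ezh2m-/p+ maternal and Ezh2m-/p+ paternal. For these peaks exon 1 is the whole transcript.

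**Figure D3:**
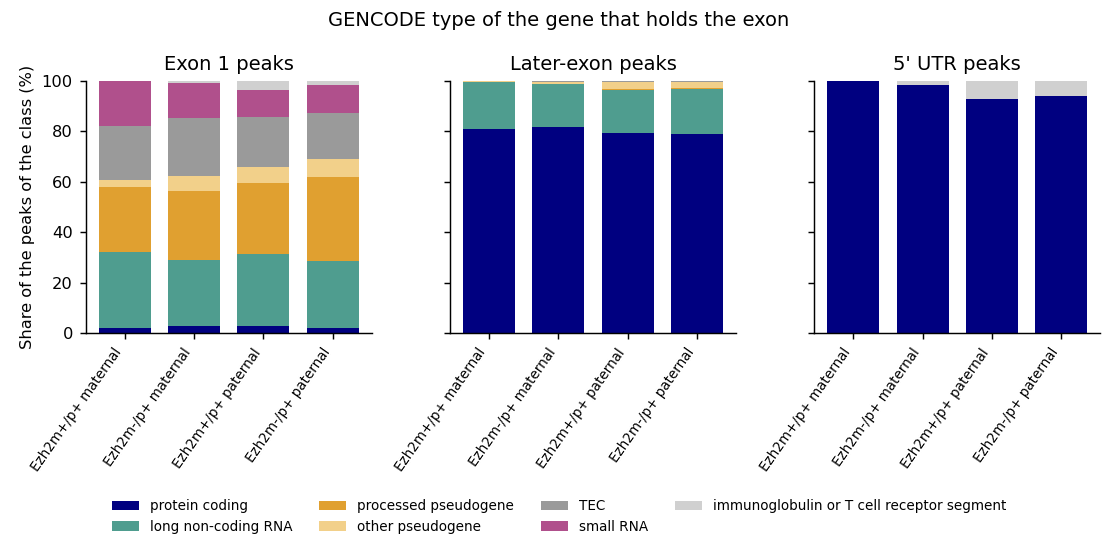
GENCODE type of the gene that holds the named exon, in percent of the peaks of each class and list. Stacked bars start at 0 and sum to 100, and protein-coding genes make up 2.40% of all exon 1 peaks but most later-exon and 5' UTR peaks.

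Many exon 1 peaks were on the start of the very transcript that their label named. The start of that transcript lay inside the peak in 1277 of 1581 exon 1 peaks (80.8%) and within 3 kb of it in 1555 (98.4%). The distances in the lists were nonetheless at least 3018 bp, with a median of 30.1 kb, and they were measured to another transcript in all but 1 of these peaks. In 1579 of them the named transcript had no Entrez gene identifier in the label. Start sites inside the peak were found in 164 (88.2%) of the Ezh2m+/p+ maternal, 352 (76.2%) of the Ezh2m+/p+ paternal, 209 (80.7%) of the Ezh2m-/p+ maternal and 552 (81.9%) of the Ezh2m-/p+ paternal exon 1 peaks. Counted by the start of the named transcript, nearly all exon 1 peaks would fall within the distance that the lists use for promoters. The nearest listed gene was the gene of the exon in 1.34% to 1.95% of exon 1 peaks.

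Among the exon 1 peaks of largest fold, Gm24051 (a snoRNA gene on chromosome 11, fold 88.5) and Gm12787 (a processed pseudogene on chromosome 4, fold 76.4) led the Ezh2m+/p+ maternal list. Gm7804 (fold 337) and Gm38332 (fold 259), both pseudogenes on chromosome 1, led the Ezh2m+/p+ paternal list. In Ezh2m-/p+ zygotes, Gm33524 (fold 72.7) and Gm23746 (fold 57.4) led the maternal list and Gm31925 (fold 599) and Gm26211 (fold 402) the paternal list. The longest member of the Ezh2m+/p+ maternal list, 9199 bp at chr3:97117201-97126399, lay on the processed pseudogene Gm43222 with a fold of 7.96.

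The 38 exon 1 peaks of protein-coding genes were 4, 14, 7 and 13 in the Ezh2m+/p+ maternal, Ezh2m+/p+ paternal, Ezh2m-/p+ maternal and Ezh2m-/p+ paternal lists. Of these, 2, 10, 3 and 6 named a retained-intron transcript, a non-coding form that keeps an intron, rather than the coding form. Exceptions included Muc16, a mucin of epithelial surfaces, whose exon 1 of 78 lay in an Ezh2m+/p+ maternal peak with a fold of 7.37. Tdrd6, a Tudor domain protein of male germ cell granules, had an Ezh2m-/p+ paternal peak of 1199 bp that was coding sequence throughout, with a fold of 9.85. Pappa2, Cop1, Dnm3, Slamf6, Erc1 and Synpo had an exon 1 peak in both paternal lists, in each case on a non-coding transcript and without coding bases in the peak. The peaks of Pappa2, Slamf6 and Synpo overlapped between these lists, whereas those of Cop1, Dnm3 and Erc1 lay at different places.

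Later-exon peaks were mostly in protein-coding genes. These held 3371 of 4224 (79.8%), long non-coding RNAs 743 (17.6%) and pseudogenes other than processed ones 88 (2.08%). The protein-coding share was 81.0% (451 of 557) in the Ezh2m+/p+ maternal and 79.2% (991 of 1251) in the Ezh2m+/p+ paternal list. The gene of the exon was also the nearest listed gene in 63.2% to 65.8% of later-exon peaks, so the remaining peaks are listed under another gene's name. The named transcripts had a median of 14, 13, 14 and 13 exons in the Ezh2m+/p+ maternal, Ezh2m+/p+ paternal, Ezh2m-/p+ maternal and Ezh2m-/p+ paternal lists. Those named by intron peaks had a median of 10 introns in every list, a count that is lower than the number of exons of a transcript. The exon number had a median of 6 in the first 3 of these lists and of 5 in the Ezh2m-/p+ paternal list.

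Within protein-coding genes the later-exon peaks were spread along the transcript. Position was scaled from 0 at exon 1, which is not part of this class, to 1 at the last exon, and its median was 0.500, 0.500, 0.502 and 0.500 in the same order of lists. The opening tercile of the transcript held 28.6%, 31.7%, 30.6% and 35.2% of these peaks and the closing tercile 31.9%, 29.4%, 32.7% and 29.6%. The Ezh2m-/p+ paternal list thus had equal numbers, 454 each, in the opening and middle terciles, whereas the other lists had most in the middle. Last exons held 4.21% (19 of 451) in the Ezh2m+/p+ maternal and 8.12% (52 of 640) in the Ezh2m-/p+ maternal list, with Wilson intervals of 2.71% to 6.49% and 6.25% to 10.5%. The paternal values were 4.94% (49 of 991, 3.76% to 6.48%) and 6.83% (88 of 1289, 5.57% to 8.34%). The Ezh2m-/p+ value was the higher one in both genomes, and the counting intervals overlapped in both. The label order puts 3' UTRs before exons, so a last exon appears here only where the peak did not touch its untranslated part as the tool read it.

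The whole named exon lay inside the peak in 89.1%, 81.8%, 83.4% and 79.8% of these peaks, and coding bases were present in 94.9%, 95.5%, 93.8% and 94.1%. At least 2 separate exons lay in 38.8%, 33.2%, 32.8% and 34.1%. The largest number was in Hspg2, which encodes perlecan, a heparan sulfate proteoglycan of basement membranes. Its Ezh2m-/p+ paternal peak ran over 45799 bp (chr4:137486001-137531799), held 36 exons with 4677 coding bp and had a fold of 13.2. Slc7a8, an amino acid transporter, held the longest member of the Ezh2m+/p+ paternal list, 21599 bp at chr14:54726401-54747999. Pebp4, a phosphatidylethanolamine-binding protein, held the longest member of the Ezh2m-/p+ maternal list, 16399 bp at chr14:69848001-69864399. Very late exons were reached too. Dst, encoding the cytoskeletal linker dystonin, had a peak on exon 99 of 103 in the Ezh2m+/p+ maternal list and on exon 88 of 103 in the Ezh2m-/p+ maternal list. In the Ezh2m-/p+ paternal list the highest exon number was 104 of 106, in Ubr4, a ubiquitin ligase.

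The largest later-exon folds of the paternal lists were those of Cep350 (506) and Tnr (409) in Ezh2m+/p+ and of Atrn (725) and Astn1 (489) in Ezh2m-/p+ zygotes, whose exon edges are printed above. In the maternal lists the largest were Gm14280 (113), an antisense RNA, and Acoxl (89.8) in Ezh2m+/p+, and Piwil2 (152) and Itga8 (102) in Ezh2m-/p+ zygotes.

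The 5' UTR peaks lay on protein-coding genes in 395 of 415 cases (95.2%), and the other 20 (4.82%) were on immunoglobulin or T cell receptor segments. They named exon 2 of the transcript more often than any other, and a peak near the listed start of a gene belongs to the promoter class. Exon 2 was named in 58.0% (29 of 50), 51.2% (66 of 129), 67.2% (45 of 67) and 49.7% (84 of 169) of the Ezh2m+/p+ maternal, Ezh2m+/p+ paternal, Ezh2m-/p+ maternal and Ezh2m-/p+ paternal peaks. Exon 1 was named in 4, 31, 6 and 37 of them, and so made up more of the paternal classes (24.0% in Ezh2m+/p+) than of the maternal ones (8.0% in Ezh2m+/p+). The leading maternal peaks were those of Stxbp4, a syntaxin-binding protein (76.4), and Ulk4, a member of a kinase family (68.4), in Ezh2m+/p+, and of Galnt12, an enzyme of O-glycosylation (75), and Jak1, a cytokine receptor kinase (71.1), in Ezh2m-/p+ zygotes. The leading paternal peaks were those of Gm29776 (343) and Rnase4, a secreted ribonuclease (325), in Ezh2m+/p+, and of Ptpra, a receptor tyrosine phosphatase (504), and Prkar2b, a regulatory subunit of protein kinase A (339), in Ezh2m-/p+ zygotes. These values are folds over input and were on different scales in each list.

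The scales differed in the steps that the folds took. The median fold of members was 7.37 in the Ezh2m+/p+ maternal, 36.1 in the Ezh2m+/p+ paternal, 23.7 in the Ezh2m-/p+ maternal and 14.8 in the Ezh2m-/p+ paternal list. For all peaks of these lists it was 7.37, 36.1, 23.7 and 15.8, so members had about the fold of their list. A few values recurred many times, with 236 Ezh2m+/p+ paternal members at 36.1 and 191 Ezh2m-/p+ paternal members at 63.0. The 5 commonest values held 43.3% and 30.4% of the members of these lists. Folds up to 10 made up 61.3% of Ezh2m+/p+ maternal but 18.8% of Ezh2m+/p+ paternal members. Folds were therefore compared within a list and not between lists.

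In base composition all members combined were slightly richer in G and C, and in CpG, than intron and distal intergenic peaks. Median GC content was 45.9%, 45.9%, 46.2% and 44.6% in the Ezh2m+/p+ maternal, Ezh2m+/p+ paternal, Ezh2m-/p+ maternal and Ezh2m-/p+ paternal members, against 45.1%, 44.1%, 45.2% and 43.6% for intron peaks of the same lists. CpG density was 1.0, 1.06, 1.06 and 1.0 per 100 bp, against 0.899, 0.813, 0.901 and 0.786 in intron and 0.818, 0.723, 0.813 and 0.667 in distal intergenic peaks. Repeat-masked sequence was a median of 19%, 18.2%, 17.5% and 19.9% of members and 22.7%, 24.3%, 21.9% and 24.9% of distal intergenic peaks. All 4 lists showed the same order in each of these measures for all members. The exon 1 peaks taken alone did not always follow it. Their median GC content was 45.1%, 45.0%, 46.2% and 43.5%, which equalled that of intron peaks in the Ezh2m+/p+ maternal list and lay below it in the Ezh2m-/p+ paternal list. Their median of repeat-masked sequence in the Ezh2m+/p+ maternal list, 23.5%, lay above that of distal intergenic peaks.

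Paternal members often overlapped a peak of the other genotype, and maternal members rarely did. Of the Ezh2m+/p+ paternal members, 1320 of 1842 (71.7%, 69.6% to 73.7%) overlapped an Ezh2m-/p+ paternal peak by at least 1 bp, beside 66.1% of all peaks of that list. Of the Ezh2m-/p+ paternal members, 1311 of 2477 (52.9%, 51.0% to 54.9%) overlapped an Ezh2m+/p+ paternal peak, beside 45.7% of all peaks. In the maternal lists the values were 72 of 793 (9.08%, 7.27% to 11.3%) beside 9.47% for Ezh2m+/p+, and 71 of 1108 (6.41%, 5.11% to 8.01%) beside 5.78% for Ezh2m-/p+. When 50% of both peaks had to be shared, the values of members became 34.1% and 27.1% in the paternal lists and 4.54% and 3.43% in the maternal lists, for Ezh2m+/p+ and Ezh2m-/p+, respectively. With a fold over 10, the Ezh2m-/p+ maternal value became 2.07%. Counted by a shared gene, the maternal values became 19.9% and 15%. These alternatives were counted for members only, so they were not set against all peaks at the same setting. By the overlap of at least 1 bp, maternal members were near the level of their whole lists, and paternal members somewhat above it. The paternal lists held more peaks than the maternal ones, and the part of list size in this contrast was not tested. The lists hold no read counts for either parental genome, so a missing overlap is not shown to be a missing mark.

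The paternal excess over the list was smaller once length was considered. When other peaks were weighted to the length bins of the members, 70.1% of Ezh2m+/p+ and 51.3% of Ezh2m-/p+ paternal peaks overlapped the other genotype, against 71.7% and 52.9% of members. In the maternal lists the weighted values were 9.71% and 6.05%. In members, overlap rose from 51.0% at up to 1500 bp to 98.1% over 4000 bp in the Ezh2m+/p+ paternal list, and from 25.5% to 88.8% in the Ezh2m-/p+ paternal list. Overlapping members had median lengths of 2399 bp and 3399 bp in these lists, and the others 1399 bp and 1799 bp. The overlap of members thus varied over a wider range across length bins than across the classes described next.

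Among the 3 classes, 5' UTR peaks had the highest overlap in each list, with intervals that overlapped those of exon 1 peaks. In the paternal lists 78.3% (101 of 129, 70.4% to 84.5%) and 63.3% (107 of 169, 55.8% to 70.2%) overlapped the other genotype, for Ezh2m+/p+ and Ezh2m-/p+, respectively. Exon 1 peaks did in 73.8% and 53.7%, and later-exon peaks in 70.2% and 51.5%. Intron peaks of the same lists did in 64.1% and 42.2%, and promoter peaks in 70.8% and 52.9%. The maternal 5' UTR values, 14% (7 of 50, 6.95% to 26.2%) and 7.46% (5 of 67, 3.23% to 16.3%), rest on few peaks and had wide intervals.

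**Figure D4:**
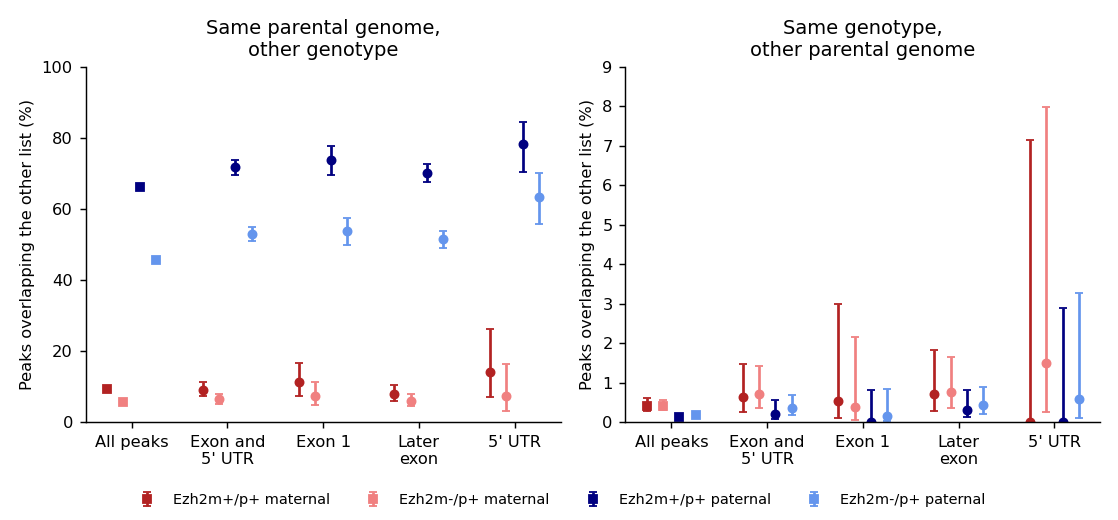
Percent of peaks that overlapped, by at least 1 bp, a peak of the same parental genome in the other genotype (left) or of the other parental genome in the same genotype (right), for all peaks (squares) and for the exon and 5' UTR classes (circles). Bars are 95% Wilson intervals; the axes of the panels differ, and the left panel reaches 78.3% whereas no point of the right panel exceeds 1.49%.

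A recurring member usually had an exonic label in both genotypes. Labels were set by position on the same gene models in both lists. Of the 1320 recurring Ezh2m+/p+ paternal members, 1072 (81.2%) overlapped a member of the other list and 752 (57%) a peak named for the same exon. The Ezh2m-/p+ paternal counts were 1022 (78%) and 701 (53.5%) of 1311. For the maternal lists they were 51 (70.8%) and 40 (55.6%) of 72, and 52 (73.2%) and 40 (56.3%) of 71. Among recurring peaks of any label, 14.2% and 12.8% overlapped a member in the paternal lists and 12.7% and 13.5% in the maternal lists, for Ezh2m+/p+ and Ezh2m-/p+, respectively. Peaks could overlap several others, and the labels given next are those of the 1 peak with the largest overlap. Of the recurring Ezh2m+/p+ paternal members, 119 (9.02%) met a promoter peak and 82 (6.21%) an intron peak of the Ezh2m-/p+ list, and 905 (68.6%) met a longer peak there. In the reverse direction 214 (16.3%) met an intron peak and 92 (7.02%) a distal intergenic peak.

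Members almost never overlapped between the parental genomes. In Ezh2m+/p+ zygotes 5 of 793 maternal members (0.631%) overlapped a paternal peak, beside 0.418% of all maternal peaks, and 4 of 1842 paternal members (0.217%) overlapped a maternal peak, beside 0.140%. In Ezh2m-/p+ zygotes these were 8 of 1108 (0.722%), beside 0.416%, and 9 of 2477 (0.363%), beside 0.180%. The value of members was the higher one in each list, on few peaks. Its Wilson interval contained the value of all peaks except in Ezh2m-/p+ paternal members, where it was 0.191% to 0.689%. The difference between members and all peaks was not tested. Where they did overlap, the shared stretch was short, with a median of 799 bp and 699 bp in Ezh2m+/p+ and 199 bp in both directions in Ezh2m-/p+ zygotes, which is 1 window of 200 bp as the lists count length. Most of the Ezh2m-/p+ pairs thus met at their edges. At lengths over 2000 bp the overlap of members became 0 and 0 in Ezh2m+/p+ and 0 and 0.0700% in Ezh2m-/p+ zygotes, with the maternal list first. By a shared gene it became 5.55% and 3.09% in Ezh2m+/p+ and 7.31% and 4.72% in Ezh2m-/p+ zygotes.

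In Ezh2m+/p+ zygotes a maternal and a paternal member met at Gm12002. At this gene, an antisense RNA gene on chromosome 11, both peaks named exon 3 of 3 and shared 799 bp, with folds of 6.87 and 36.1. In Ezh2m-/p+ zygotes members met at Gm30600, AC151294.2, Dnah8, Stra6l and Dclk3. Dnah8 encodes an axonemal dynein heavy chain, and its maternal peak on exon 52 of 93 (fold 22.2) met a paternal peak on exon 49 (fold 5.25) over 199 bp. Stra6l, a receptor for retinol-binding protein, and Dclk3, a doublecortin-like kinase, shared 199 bp each. Across genotypes, Pik3ap1, an adaptor of phosphoinositide 3-kinase signalling, had an Ezh2m+/p+ maternal and an Ezh2m-/p+ paternal peak on exon 14 of 17 that shared 199 bp, and Dnah8 met again.

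The lists were also compared by gene. Members named 746 genes in the Ezh2m+/p+ maternal, 1382 in the Ezh2m+/p+ paternal, 997 in the Ezh2m-/p+ maternal and 1886 in the Ezh2m-/p+ paternal list. The paternal lists shared 906 genes, 65.6% of those of Ezh2m+/p+ and 48.0% of those of Ezh2m-/p+ zygotes. The maternal lists shared 133 (17.8% and 13.3%). Maternal and paternal lists shared 39 genes in Ezh2m+/p+ zygotes (5.23% and 2.82%) and 69 in Ezh2m-/p+ zygotes (6.92% and 3.66%). Of 3839 genes in all, 2738 (71.3%) were in 1 list, 1041 in 2, 49 in 3 and 11 (0.287%) in every list. For a comparison with all peaks, both were counted by the nearest listed gene. The paternal lists then shared 69.9% and 52.6% of the genes of members, against 86.7% and 74.1% of the genes of all peaks, and the maternal lists 22.3% and 16.5% against 58.0% and 40.0%. The higher sharing between paternal lists was thus found over all peaks too. Between maternal and paternal lists the shares were 7.57% and 4.63% of the genes of members in Ezh2m+/p+ zygotes, against 27.3% and 19.4% for all peaks, and 9.98% and 6.20% in Ezh2m-/p+ zygotes, against 29.0% and 25.5%. The lists of all peaks name more genes than those of members, and the part of this in the shares was not tested.

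Of the 11 genes with a member in every list, 10 were AI481877, Babam2, Cd82, Dnah8, Dock5, Lama3, Mgat5, Tg, Tln2 and Tns3. Tln2 encodes talin-2 and Tns3 tensin-3, which link integrins to actin, Lama3 encodes laminin alpha 3 of basement membranes, and Dock5 is an exchange factor for Rac. The others include thyroglobulin (Tg), the tetraspanin Cd82, the glycan-branching enzyme Mgat5 and Babam2, a subunit of the BRCA1-A complex. Of these 10 genes, Dnah8 alone had maternal and paternal members that overlapped. In Babam2, the maternal peaks were on the 5' UTR at exon 5 of 12 (folds 40.2 in Ezh2m+/p+ and 22.9 in Ezh2m-/p+), and they overlapped each other. Its paternal peaks were on exon 8 of 12 (folds 84.3 and 21.7) and overlapped each other too.

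In AI481877 the same arrangement was seen, with maternal peaks at exons 14 and 15 of 28 (folds 84.4 and 27.5) and paternal peaks at exon 25 (folds 72.2 and 78.8). Dock5 had paternal peaks at exon 23 of 52 in both genotypes (folds 6.02 and 126) and another at exon 22 in Ezh2m-/p+ zygotes (fold 7.88). Its maternal peaks were at exon 11 in Ezh2m+/p+ (fold 6.70) and exon 18 in Ezh2m-/p+ zygotes (fold 19.1) and did not overlap. In Lama3 no member overlapped another, with maternal peaks at exon 3 and at exons 53 and 63 of 75 and paternal peaks at exons 28 and 13. A gene in every list was therefore not a position in every list.

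**Figure D5:**
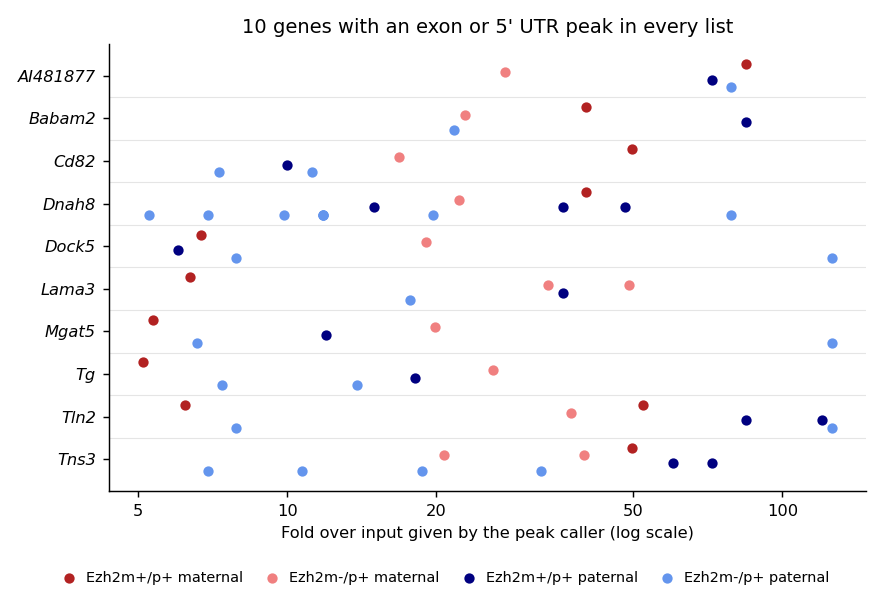
Fold over input of each exon or 5' UTR peak in 10 genes that had one in every list, on a log axis, with 1 point for each peak. Folds are comparable within a list only. Dnah8 has the most peaks, with 3 in the Ezh2m+/p+ paternal list and 8 in the Ezh2m-/p+ paternal list.

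Genes with more than 1 member were more frequent in the paternal lists, which also held more members. A single member was found in 94.9% and 90.7% of the maternal genes and in 81.4% and 81.1% of the paternal genes, for Ezh2m+/p+ and Ezh2m-/p+, respectively. By the nearest listed gene, a single peak was found in 92.2% and 89.4% of maternal and 73.1% and 71.2% of paternal genes for members, and in 68.7% and 63.7% of maternal and 43.1% and 38.9% of paternal genes for all peaks, so the order of the lists was that of all peaks. At least 5 members were found in 0 and 1 maternal genes and in 28 and 28 paternal genes. Cep350 had the most in the Ezh2m+/p+ paternal list, 11 peaks over 51.2 kb with folds of 7.90 to 506, together with the pseudogene Gm6185 (11 peaks, 40.8 kb, 11.9 to 132). The exon peaks of Cep350 ran from exon 6 to exon 33 of a transcript of 38 exons, and its 5' UTR peak lay at exon 3 of a transcript of 8. Cep350 had 6 members in the Ezh2m-/p+ paternal list and Gm6185 had 4, and neither had any in a maternal list.

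The Ezh2m-/p+ paternal list was led by Pappa2, a protease of insulin-like growth factor-binding proteins, with 11 members over 53.6 kb, and by Ank2, which encodes ankyrin-B, with 10 over 47.4 kb. Eif4g3, a translation initiation factor, had 10 as well, over 35.6 kb. Pappa2 had 10 and Ank2 9 in the Ezh2m+/p+ paternal list, and neither had a maternal member. Alk, a receptor tyrosine kinase, had 9 paternal members in Ezh2m+/p+ (38.6 kb) and 8 in Ezh2m-/p+ zygotes (99.4 kb), so fewer but longer peaks covered it there. Mtor, the growth-regulating kinase, had 9 and 6. Pappa2, Ank2, Alk and Mtor had members in both paternal lists and in neither maternal list.

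The maternal lists were led by other genes. In the Ezh2m+/p+ maternal list Cacna1c, the pore-forming subunit of an L-type calcium channel, had 4 members over 19.4 kb with folds of 5.53 to 6.20, and Sdk1, the adhesion protein sidekick-1, had 4 with folds of 6.70 to 76.4. Cacna1c had 2 members in the Ezh2m-/p+ maternal list and Sdk1 none. In the Ezh2m-/p+ maternal list Piwil2 had 5 members over 33.0 kb with folds of 11.7 to 152, and no member in any other list. Ttc8, a subunit of the BBSome of cilia, had 4 with folds of 10.6 to 60.4, again in that list alone. Gucy1b2, a guanylate cyclase subunit, was the gene with 3 members in both maternal lists. Although Piwil2 had no Ezh2m+/p+ maternal member, 2 of its 5 peaks overlapped an Ezh2m+/p+ maternal peak that had another label. The Ttc8 peak with a fold of 10.6 overlapped an Ezh2m+/p+ maternal peak too.

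The T cell receptor genes of chromosome 14 had members in the paternal lists alone. In the T cell receptor alpha and delta locus, chr14:52426401-54217599 (1.79 Mb), 27 Ezh2m+/p+ paternal and 25 Ezh2m-/p+ paternal members lay on receptor segments, and no maternal member or other maternal peak lay in this span. Of the Ezh2m+/p+ members, 17 named exon 1, 1 a later exon and 9 a 5' UTR, and 24 overlapped an Ezh2m-/p+ paternal peak. Of the Ezh2m-/p+ members, 13 named exon 1, 2 a later exon and 10 a 5' UTR, and 19 overlapped an Ezh2m+/p+ paternal peak. Of all peaks of these lists, 66.1% and 45.7% overlapped a peak of the other genotype. Folds were 8.28 to 217 and 5.12 to 189. All members made up 33 of 102 peaks (32.4%) and 30 of 87 peaks (34.5%) of the span. Segments of this locus are short genes of 1 or few exons that are rearranged in T cells, and in zygotes the locus is in its germline form. The locus was singled out after its peaks had been seen, so its counts are a description. Immunoglobulin segments held 6 Ezh2m+/p+ paternal, 3 Ezh2m-/p+ maternal and 5 Ezh2m-/p+ paternal members and no Ezh2m+/p+ maternal one.

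Gene families, read from the symbol of the exon's gene, held few members each. Genes of solute carriers had 12, 19, 14 and 24 in the Ezh2m+/p+ maternal, Ezh2m+/p+ paternal, Ezh2m-/p+ maternal and Ezh2m-/p+ paternal lists, and potassium, sodium and calcium channels 6, 15, 8 and 16. Collagens, whose genes have many short exons, had 4, 12, 7 and 20. Olfactory receptors had 1, 15, 2 and 19, and zinc finger proteins 0, 9, 5 and 12. By the nearest listed gene, which all peaks have, solute carriers were 2.27%, 1.41%, 1.99% and 1.45% of members against 2.33%, 1.46%, 1.72% and 1.43% of all peaks. Olfactory receptors were 0.378%, 1.68%, 0.361% and 1.57% against 0.383%, 1.59%, 0.541% and 1.54%, so that both families were about as frequent among members as in their lists. Channels were 0.757%, 0.869%, 0.903% and 0.767% against 1.44%, 1.03%, 1.18% and 0.986%, and zinc finger proteins 0.757%, 1.52%, 0.632% and 1.41% against 0.731%, 1.22%, 0.874% and 1.33%. Collagens were 0.631%, 0.706%, 0.903% and 0.929% against 0.296%, 0.459%, 0.354% and 0.451%, a higher share of members than of all peaks in each list, from 5 to 23 members. Symbols of predicted genes made up 35.8%, 35.8%, 34.8% and 37.6% of members by the exon's gene and 10.2%, 9.72%, 9.57% and 11.3% by the nearest listed gene. The name under which such a peak is found depended on which of these genes was read.

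The share of peaks that were members differed between chromosomes. Among Ezh2m+/p+ paternal peaks it was 15.4% on chromosome 19 (95% interval 12.7 to 18.7) and 7.12% on chromosome 18 (5.33 to 9.45), against 10.3% of the whole list. Among Ezh2m-/p+ paternal peaks it was 13.6% on chromosome 19 (11.2 to 16.5) and 7.27% on chromosome 15 (5.40 to 9.71), against 10.9%. Chromosome 18 was at 9.24% (7.33 to 11.6) and chromosome 16, the lowest autosome, at 7.17% (4.82 to 10.5) there, so the low end was not the same in both lists. Chromosome 1 held 279 (15.1%) of the Ezh2m+/p+ paternal and 327 (13.2%) of the Ezh2m-/p+ paternal members, beside 13.7% and 11.5% of all peaks. In the Ezh2m+/p+ maternal list chromosome 2 held most, 83 (10.5%) beside 12.5% of all peaks. On the X chromosome the paternal lists had a low share of members, 3.99% (23 of 576) and 6.40% (63 of 985), against 19% (8 of 42) and 10.9% (13 of 119) in the maternal lists. Leaving out the X chromosome did not move any member share or overlap given above beyond its interval.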

How the data were processed

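H3K27me2 ULI-NChIP-seq peaks of 2 genotypes of PN5 zygotes were analysed, with 1 library and 1 input each. The authors used Trimmomatic 0.38 for trimming, Bowtie2 for alignment (mm10), Picard for duplicates, SNPsplit for the parental split, SICER with the input for peak calling and ChIPseeker for labels. Their limits were a length above 1000 bp and a fold above 5, and the deposited ratio of each peak is this fold over input. Lengths are as listed, so the shortest is 999 bp. The deposited fraction of each chromosome covered by reads was not used here.

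Labels were parsed for transcript, exon number and number of exons, and checked against GENCODE gene models and the GRCm38 sequence. Peaks overlapped where they shared at least 1 bp. Shares have 95% Wilson intervals for counting error, and no test was made. The members and lists of genes were chosen with earlier results of these data known. The named genes were the 2 peaks of largest fold of each class and list, the 2 genes with most members, the longest member and the highest exon number of each list, loci where members of both parents met, and genes in all 4 lists. Gene sharing by nearest gene, length bins, length weighting, protein-coding exon 1 peaks, other genes with many members and the T cell receptor locus were added after values were seen. Alternatives were limits of 10 for the fold and of 2000 bp for the length, autosomes, covered bp, at least 200 exonic bp, a reciprocal overlap of 50% and the same gene in place of overlap. Scripts ran in Python 3.11.15 (pandas 2.3.3, numpy 2.4.6, matplotlib 3.10.9, scipy 1.17.1). On simulated data, 1000 overlaps put into 4000 peaks were recovered as 1000. Some results that the rule would name are not reported here.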

Additional observations from a re-analysis of the deposited data

Results flagged for a closer look

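Member shares were lower in the Ezh2m-/p+ than in the Ezh2m+/p+ maternal list and higher in the Ezh2m-/p+ than in the Ezh2m+/p+ paternal list, and this opposite movement is why they are listed here. Each value is the share in the Ezh2m-/p+ list minus that in the Ezh2m+/p+ list, in percentage points. For all exon and 5' UTR peaks it was -2.27 in the maternal and 0.541 in the paternal lists. For later exons it was -1.56 and 0.156, for exon 1 -0.542 and 0.367, and for 5' UTRs -0.173 and 0.0183. With 1 library per genotype, the difference between the genomes was not tested. Median peak length moved with the shares, being shorter in the Ezh2m-/p+ than in the Ezh2m+/p+ maternal list (2199 bp beside 2999 bp) and longer in the Ezh2m-/p+ than in the Ezh2m+/p+ paternal list (1999 bp beside 1799 bp), and its part in them was not tested. The signs rest on the genotype names of the lists, and would be opposite with the names exchanged.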

How the results depend on the processing

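The direction of the genotype difference in the member share was kept under all 5 alternatives in both genomes, at -2.49 to -1.12 points in the maternal and 0.250 to 1.29 in the paternal lists. Values below are in the order Ezh2m+/p+ maternal, Ezh2m+/p+ paternal, Ezh2m-/p+ maternal and Ezh2m-/p+ paternal. The share became 14.9%, 13.2%, 13.7% and 13.5% at lengths over 2000 bp and 7.35%, 5.53%, 6.23% and 6.23% when 200 exonic bp were required. By covered bp it became 12%, 12.9% and 13.3% in the last 3 lists, and at a fold over 10 it became 10.7% in the Ezh2m-/p+ maternal list. Overlap between genotypes became 6.19%, 48.5%, 2.07% and 43.8% at a fold over 10 and 4.54%, 34.1%, 3.43% and 27.1% with a reciprocal overlap of 50%. At lengths over 2000 bp it became 78.3% and 48.5% in the paternal lists. By shared gene it became 19.9%, 15% and 57.2% in the Ezh2m+/p+ maternal and both Ezh2m-/p+ lists. Overlap between parental genomes became 0, 0, 0 and 0.0700% at lengths over 2000 bp, 0, 0, 0.0903% and 0 with a reciprocal overlap of 50%, and 5.55%, 3.09%, 7.31% and 4.72% by shared gene. At a fold over 10 it became 0 in the Ezh2m+/p+ paternal list. The overlaps under these alternatives were counted for members only, without the share of all peaks at the same setting. The other 8 shares, 7 overlaps between genotypes and 7 between parental genomes, all those on autosomes among them, stayed within their intervals. Stricter limits leave fewer peaks to overlap; the cause of other changes was not tested.

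No paired analysis was possible because each genotype had 1 library. Peaks without read counts limit what can be said of a peak found in 1 list, since signal values of each parental genome were not used here.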
